A study of Trichoderma reesei with 9 samples.

Results

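The genes described here are 5 chitinase genes of *Trichoderma reesei* RUT-C30 from glycoside hydrolase family 18 (GH18). They were chosen by their own readout: on high melanin necromass their mean level (counts per 1000000 counts, CPM) was 4 or more times that on low melanin necromass. They are M419DRAFT_7503, M419DRAFT_86290, M419DRAFT_94061, M419DRAFT_104468 and M419DRAFT_133349, 5 of the 12 genes with a GH18 tag in the annotation used and 5 of the 9849 genes in the count table. Because high against low melanin selected them, that difference is given below as a description and was not tested.

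The 9 libraries came from liquid cultures of a single strain, RUT-C30, whose *cre1* gene for the carbon catabolite repressor is truncated, so every group carried that allele. All cultures were sampled at 7 days. The glucose group (n = 3) grew in Highley's medium with 1% (w/v) glucose, while the low melanin and high melanin groups (n = 3 each) had, in place of glucose, 0.45% (w/v) of freeze-dried *H. bicolor* mycelium (necromass) poor or rich in melanin. Each necromass type was harvested in bulk from *H. bicolor* cultures that differed in medium volume and shaking speed, so melanin content and any other property of the 2 batches cannot be told apart. Likewise, carbon source and substrate amount differ together between glucose and necromass.

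Chitin is a polymer of N-acetylglucosamine and part of the fungal cell wall. GH18 chitinases cut the bonds within the chain, and the oligomers released are broken down further by hexosaminidases. *Trichoderma* species carry many GH18 genes, which are known for roles in attacking other fungi, in remodelling their own walls and in recycling dead hyphae. Some GH18 enzymes carry a carbohydrate-binding module of family 1 (CBM1), a small domain best known from the cellulases of *T. reesei*, where it holds the enzyme on a cellulose surface.

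Of the 5 genes, M419DRAFT_86290, M419DRAFT_104468 and M419DRAFT_133349 carried the CBM1 tag, whereas 0 of the 7 other GH18 genes did. These 3 genes and M419DRAFT_94061 shared the orthologous group KOG4701, which 2 of the 7 others also had, while a different group, KOG2806, was assigned to 4 of the 7 others and to 0 of the 5. M419DRAFT_7503 had neither group, and it was the only one of the 5 with the annotation term for chitin catabolism. M419DRAFT_104468 additionally carried a peptidase tag next to its GH18 and CBM1 tags. The annotation came from a list of genes that the study had called, so GH18 genes outside that list are not counted here. How similar the transcripts are to each other was not examined, and kallisto divides reads among similar transcripts by estimation, so counts of close paralogs would be uncertain.

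Levels are CPM after TMM scaling, a scaling of library totals for composition, with mean ± SD over the 3 libraries of a substrate. Transcript lengths were not used here, so a level can be compared between substrates for the same gene but not between genes. Total counts per library lay between 18074631 and 24635281. A count of 3, taken as the floor of detection and covering counting error only, equals 0.128 to 0.158 CPM depending on the library. Ratios of counts are given with exact 95% intervals that likewise cover counting error only.

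On the necromass types, all 5 genes were higher in every high melanin library than in every low melanin library, which holds for 24.7% of the 9312 genes tested, and the rule gave all 5 this direction. A ratio of means of 4 or more was found for 0.784% of tested genes. Of all tested genes, 0.655% were called higher and 0.215% lower on high than on low melanin, a call being an adjusted p under 0.05 together with a log2 difference of 2 or more in size. In order of the ratio of mean CPM among all tested genes, M419DRAFT_86290 was number 5, M419DRAFT_104468 number 11, M419DRAFT_94061 number 13, M419DRAFT_133349 number 22 and M419DRAFT_7503 number 58. The background shares and these places describe the selection and are not evidence for it.

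**Figure D1:**
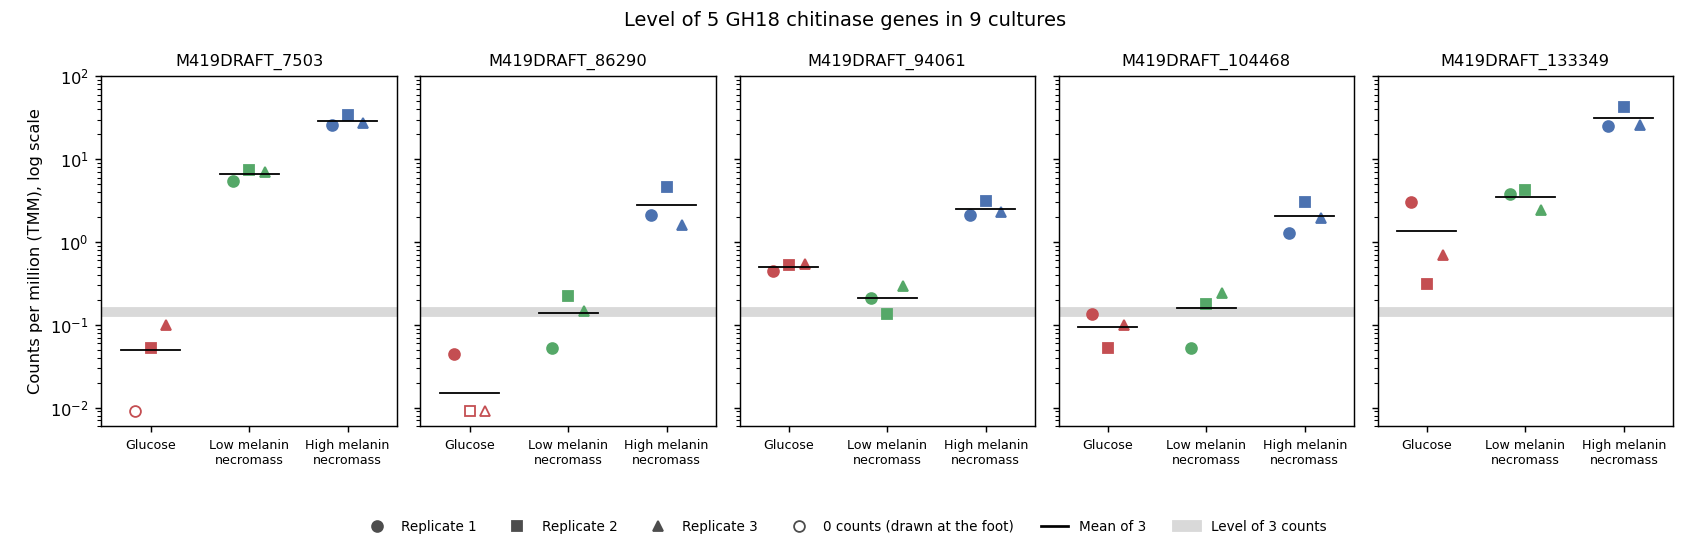
CPM of each of the 5 GH18 genes (y axis, log scale) in each of the 9 libraries by substrate (x axis), with the mean of each substrate as a line and libraries with 0 counts drawn as open markers at the foot. Every high melanin library lay above every low melanin library of the same gene, and M419DRAFT_94061 was lower on low melanin necromass (0.210, 0.134 and 0.291 CPM) than on glucose (0.445, 0.522 and 0.541 CPM).

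M419DRAFT_7503, a chitinase gene without CBM1, was under the floor in every glucose library and far above it on both necromass types. On glucose its replicates 1, 2 and 3 had 0, 1 and 2 counts. On low melanin necromass it stood at 5.52, 7.34 and 7.07 CPM (6.64 ± 0.981), and on high melanin necromass at 26.1, 34.4 and 27.6 CPM (29.4 ± 4.40). The 3 substrates therefore formed 3 bands with no overlap, in the order glucose, low melanin, high melanin. The high melanin mean was 4.42 times the low melanin mean, the lowest such ratio of the 5 genes and 4.11 times on CPM from plain library totals, the measure of the rule. Its place inside the 4-fold limit depended on single libraries: by plain library totals the ratio was 3.68 without high melanin replicate 2 and 3.83 without low melanin replicate 1 (4.04 after TMM scaling without high melanin replicate 2).

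M419DRAFT_133349, a GH18 gene with CBM1, was also readily counted on both necromass types. On high melanin necromass it stood at 25.4, 43.1 and 25.9 CPM (31.4 ± 10.1), and on low melanin necromass at 3.79, 4.25 and 2.42 CPM (3.49 ± 0.951), a ratio of means of 9.02. On glucose the libraries were uneven, with 3.07 CPM in replicate 1 against 0.313 and 0.689 CPM in replicates 2 and 3. Glucose replicate 1 was 6.12 times the mean of the other glucose libraries and lay within the low melanin range, so glucose and low melanin overlapped for this gene.

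The remaining 3 genes had low counts outside high melanin necromass. M419DRAFT_86290, with CBM1, had 1, 0 and 0 counts on glucose and 1, 5 and 3 counts on low melanin necromass, against 50, 103 and 32 counts on high melanin necromass. The mean CPM was 0.140 ± 0.0856 on low melanin against 2.78 ± 1.58 on high melanin, and the ratio of means, 19.8, was the highest of the 5 genes. The pooled counts gave a ratio of 18.0 with an interval of 9.29 to 40.0, so its size is known only roughly.

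M419DRAFT_104468, the CBM1 gene with the additional peptidase tag, had 3, 1 and 2 counts on glucose and 1, 4 and 5 on low melanin necromass, and these 2 groups overlapped. On high melanin necromass it had 30, 68 and 38 counts, or 1.28, 3.02 and 1.93 CPM (2.08 ± 0.877). The high melanin mean was 13.2 times the low melanin mean of 0.158 ± 0.0965 CPM, with a ratio of pooled counts of 11.9 (interval 6.29 to 25.4).

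M419DRAFT_94061, which has no CBM1 tag, differed from the other 4 in its order of substrates. It had 0.445, 0.522 and 0.541 CPM on glucose (0.503 ± 0.0513) but 0.210, 0.134 and 0.291 CPM on low melanin necromass (0.212 ± 0.0782), from 10, 10 and 11 counts against 4, 3 and 6. On high melanin necromass it stood at 2.14, 3.11 and 2.33 CPM (2.53 ± 0.512), 11.9 times the low melanin mean. All low melanin libraries were below all glucose libraries, as for 36.6% of tested genes, and all high melanin libraries were above them. The other 4 genes had means that went up from glucose to low melanin to high melanin, an order shared by 27.5% of tested genes.

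The nearest GH18 gene outside the 4-fold limit was M419DRAFT_124526, with a ratio of 2.41 (2.24 on plain library totals), against 4.42 (4.11) for M419DRAFT_7503 just inside it. No GH18 gene of the list fell between them. The smallest distance between groups, the lowest high melanin library over the highest low melanin library, was 3.55 for M419DRAFT_7503, 5.31 for M419DRAFT_104468, 5.97 for M419DRAFT_133349, 7.25 for M419DRAFT_86290 and 7.37 for M419DRAFT_94061. The order of these distances differs from the order of the mean ratios.

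The question that the selection leaves free to test is whether the genes differed between necromass and glucose. The mean of both necromass types on the log2 scale was compared with glucose, a contrast that does not use the difference between the types, in edgeR's quasi-likelihood fit of all 9 libraries with Benjamini-Hochberg adjustment over 9312 genes. M419DRAFT_86290 and M419DRAFT_104468 reached the minimum of 10 counts in 3 libraries only through the high melanin libraries, for which they were chosen, so their differences from glucose are given without a call or a p. Of the other 3 genes, M419DRAFT_7503 and M419DRAFT_133349 were called higher on necromass and M419DRAFT_94061 was not called. M419DRAFT_7503 passed that minimum only through necromass libraries, the side on which it was called higher, so its call and p carry that limit. Among all tested genes, 12.9% were called higher and 7.96% lower.

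For M419DRAFT_7503 the log2 difference between necromass and glucose was 8.00 (SE 0.38, edgeR adjusted p = 7.17e-08). It rests on 3 glucose counts in all, and the ratio of pooled counts was 138 (interval 46.8 to 670) for low melanin over glucose and 561 (interval 192 to 2722) for high melanin over glucose. Those few glucose counts decide its size: without glucose replicate 3 the log2 difference was 8.87, and without replicate 1 it was 7.41. Its glucose level, 0.0502 CPM, was 0.937 times the level that a carry-over of 0.183% of the high melanin level would give. That percentage is the median over the 10 genes with the lowest glucose share among those with at least 1000 CPM on high melanin necromass, and its part in the glucose counts of M419DRAFT_7503 was not tested.

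For M419DRAFT_86290 the log2 difference was 4.88 (SE 0.98), with a single count over all glucose libraries. The ratio of pooled high melanin to glucose counts was 161 with an interval of 28.6 to 6411. Leaving out glucose replicate 1 put glucose at 0 and the fitted value at 6.76, which then depends on the fit's prior count and is no measured fold. On low melanin necromass alone the ratio to glucose was 8.96, from 9 counts against 1, with an interval of 1.24 to 393.

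For M419DRAFT_104468 the log2 difference was 2.52 (SE 0.60). Low melanin necromass by itself differed from glucose by 0.70 (SE 0.76) on the log2 scale and high melanin necromass by 4.34 (SE 0.54). The low melanin difference was thus smaller than its SE, and the value for both types together is the mean of these 2. The ratio of pooled high melanin to glucose counts was 19.8 (interval 8.86 to 54.8).

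For M419DRAFT_133349 the log2 difference was 2.91 (SE 0.57, edgeR adjusted p = 0.000985). Glucose replicate 1 decided its size: without that library the difference was 4.36 and the ratio of high melanin to glucose means went from 23.2 to 62.7. The value of 2.91 averages 1.32 (SE 0.62) on low melanin, under the fold limit, and 4.49 (SE 0.62) on high melanin necromass. It thus passed the limit through its high melanin part. The gene was called under both fits.

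For M419DRAFT_94061 the log2 difference was 0.54 (SE 0.30, edgeR adjusted p = 0.125), short of both limits of a call. This value averages a negative difference on low melanin, −1.23 (SE 0.38), and a positive one on high melanin, 2.32 (SE 0.29). The glucose mean was 2.38 times the low melanin mean, and the high melanin mean 5.03 times the glucose mean.

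**Figure D2:**
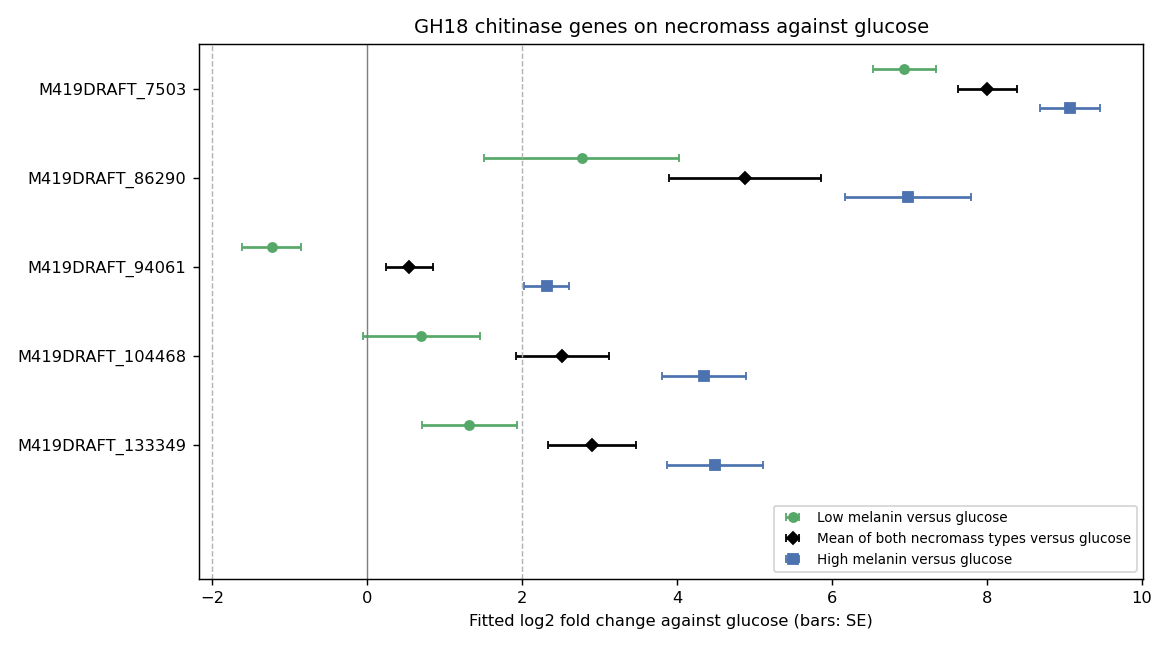
Fitted log2 fold change against glucose (x axis, bars SE) of the 5 GH18 genes (y axis) on low melanin necromass, on high melanin necromass and for the mean of both, with dashed lines at −2 and 2. The low melanin values ran from −1.23 for M419DRAFT_94061 to 6.93 for M419DRAFT_7503, and the high melanin values from 2.32 to 9.07 for the same genes.

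Set against glucose separately, the low melanin log2 differences were 6.93 (SE 0.41) for M419DRAFT_7503, 2.77 (SE 1.26) for M419DRAFT_86290 and 1.32 (SE 0.62) for M419DRAFT_133349, beside those of the other genes above. The high melanin differences were 9.07 (SE 0.39), 6.99 (SE 0.81) and 4.49 (SE 0.62) for the same 3 genes. These values share the necromass libraries that chose the genes, and both sets share the glucose libraries, so no p is given for them. Every high melanin library was above every glucose library in 5 of 5 genes, where 39.3% of tested genes show this. Every library of both necromass types was above every glucose library in M419DRAFT_7503 and M419DRAFT_86290, where 35.2% of tested genes show it. For M419DRAFT_86290 this separation from glucose is between a low melanin library and a glucose library with 1 count each.

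Among the high melanin libraries, replicate 2 was the highest in 5 of 5 genes. Its level over the mean of the other high melanin libraries was 1.28 for M419DRAFT_7503, 1.39 for M419DRAFT_94061, 1.68 for M419DRAFT_133349, 1.88 for M419DRAFT_104468 and 2.43 for M419DRAFT_86290. Replicate 2 was the highest of the 3 in 30.0% of all tested genes, in 2 of the 7 other GH18 genes, and in 14.7% of the 68 other genes past the same 4-fold limit. The cause was not tested.

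The spread among the high melanin libraries is given beside the part that counting alone would give. The coefficient of variation over the high melanin libraries was 56.7% for M419DRAFT_86290, where counting alone would give 12.7%, and 32.0% against 3.80% for M419DRAFT_133349. It was 42.2% against 14.9% for M419DRAFT_104468 and 15.0% against 3.94% for M419DRAFT_7503. For M419DRAFT_94061 the 2 values, 20.3% and 13.4%, lay closest together. Without replicate 2 the high over low melanin ratio went from 19.8 to 13.4 for M419DRAFT_86290, from 13.2 to 10.2 for M419DRAFT_104468, from 11.9 to 10.6 for M419DRAFT_94061 and from 9.02 to 7.36 for M419DRAFT_133349.

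**Figure D3:**
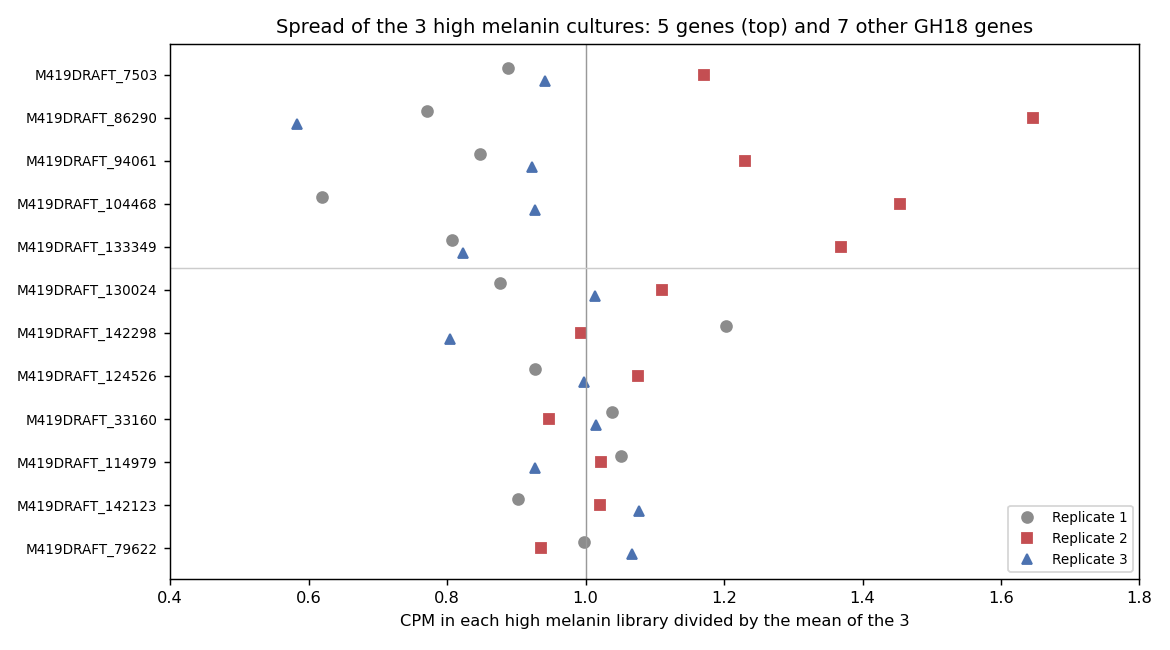
Level of the 5 GH18 genes (top) and the 7 other GH18 genes (bottom) in each of the 3 high melanin libraries, divided by the mean of the gene over those libraries (x axis), with a symbol for each replicate. Replicate 2 was the highest in 5 of 5 genes, by 1.28 to 2.43 times the mean of the other high melanin libraries, and in 2 of the 7 others.

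How alike the 5 genes were depended on the libraries compared. Over the 6 necromass libraries Pearson's r of log2 CPM for the 10 pairs of genes was between 0.94 and 0.99, with the 2 groups that chose the genes lying apart in each of them. Over the 3 glucose libraries, where counts were few for most of the genes, 6 of the 10 pairs had a negative r and the range was −0.98 to 0.98. Over all 9 libraries it ran from 0.46 for M419DRAFT_7503 with M419DRAFT_94061 to 0.98 for M419DRAFT_86290 with M419DRAFT_104468. All these values share libraries and scaling and are a description.

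The 7 other GH18 genes, which the 4-fold limit left out, showed several patterns. M419DRAFT_142298 had much the same level on both necromass types, at 340 ± 131 CPM (low melanin) and 361 ± 71.8 CPM (high melanin), from 1.83 ± 0.126 CPM on glucose. M419DRAFT_114979 (25.6 ± 4.80 and 29.5 ± 1.93 CPM) and M419DRAFT_33160 (3.46 ± 0.809 and 4.50 ± 0.210 CPM) likewise had ratios near 1, at 1.15 and 1.30. M419DRAFT_124526 (218 ± 50.5 and 525 ± 39.2 CPM) and M419DRAFT_79622 (21.7 ± 4.64 and 47.2 ± 3.10 CPM) were higher on high melanin by 2.41 and 2.17 times.

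Opposite to the 5 genes, M419DRAFT_130024 had 11.2 ± 3.55 CPM on low melanin but 2.20 ± 0.259 CPM on high melanin necromass, a ratio of 0.196, and 0 counts in every glucose library. M419DRAFT_142123 was highest on glucose, at 2239 ± 674 CPM, and had 199 ± 65.8 CPM on low melanin but 66.4 ± 5.91 CPM on high melanin. So within a single enzyme family, ratios of high to low melanin means ran from 0.196 to 19.8.

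**Figure D4:**
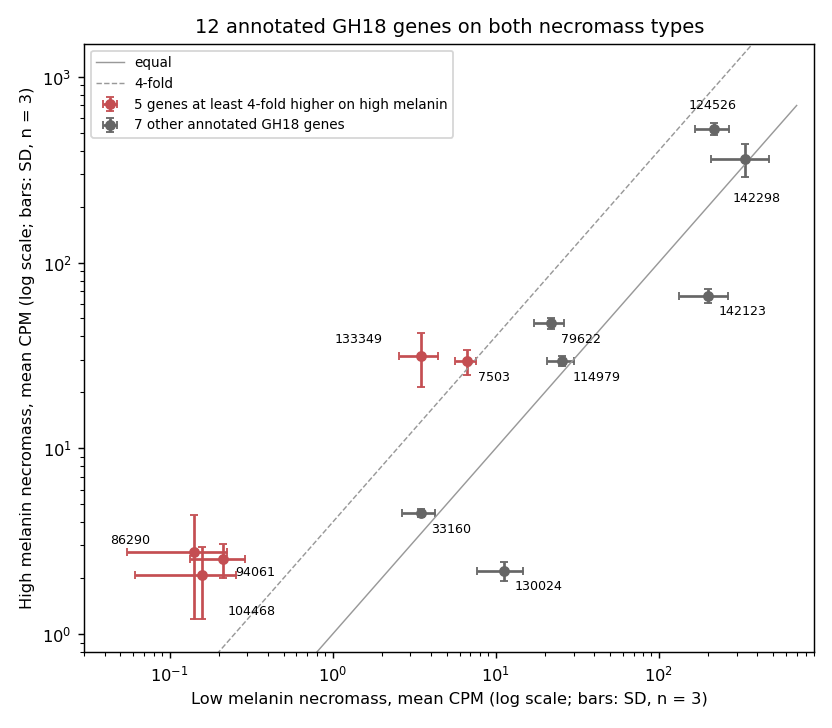
Mean CPM on high melanin necromass (y axis) against mean CPM on low melanin necromass (x axis), both log scales with SD bars (n = 3), for the 12 annotated GH18 genes, labelled by the number that ends their locus tag. The 5 chosen genes lie above the dashed 4-fold line by the rule, and M419DRAFT_124526, at 2.41, is the nearest gene below it.

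For necromass against glucose, 6 of these 7 GH18 genes were called higher and M419DRAFT_142123 was called lower. Its log2 difference was −4.28 (SE 0.24, edgeR adjusted p = 1.58e-07). Of all tested genes, 12.9% were called higher and 7.96% lower. The 7 genes came from the study's list of genes called in these same libraries, so a call here was favoured in advance. Their count is therefore a description and not a result against those shares. M419DRAFT_130024 and M419DRAFT_33160, like M419DRAFT_7503, reached the minimum of 10 counts only through necromass libraries, the side on which they were called higher. The median log2 difference of the 7 was 4.71, the same with M419DRAFT_130024 set to its bound against the floor of 3 counts over the glucose libraries. All tested genes had a median of 0.01. Whether the 5 chosen genes differ from the other 7 in this contrast was not tested.

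Beyond chitinases, 6 genes of families that act on chitin, chitosan or their fragments were examined, and they do not show the 5 genes' pattern as a group. M419DRAFT_135815 encodes a lytic polysaccharide monooxygenase of family AA11 (enzymes that cut crystalline chitin by oxidation). It had 4, 5 and 5 counts on glucose, 3, 8 and 3 on low melanin and 21, 39 and 14 on high melanin necromass. The gene thus reached the minimum of 10 counts only through the high melanin libraries, so its difference is given without a call or a p. It stood at 0.178, 0.261 and 0.246 CPM on glucose and at 0.158, 0.358 and 0.145 CPM on low melanin, against 0.899, 1.73 and 0.710 CPM on high melanin. The high melanin libraries lay above all others, with a log2 difference from low melanin of 2.29 (SE 0.48). As in the 5 chitinase genes, replicate 2 was the highest. The call was lost without high melanin replicate 2 (1.81, edgeR adjusted p = 0.0616), without low melanin replicate 1 (2.11, edgeR adjusted p = 0.0840) and without low melanin replicate 3 (2.06, edgeR adjusted p = 0.0929).

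The other 5 genes were not called on high against low melanin, where 0.655% of all tested genes were called higher and 0.215% lower. The median log2 difference of the 6 was 0.19, against −0.01 for all tested genes. M419DRAFT_71653, from the N-acetylglucosaminidase family GH89, had a log2 difference of −1.38 (SE 0.30, edgeR adjusted p = 0.0218), which is under the fold limit. On necromass against glucose, 0 of the 6 were called higher and 2 lower, where 12.9% and 7.96% of all tested genes were, shares at which counts of 0 and 2 among so few genes say little. Called lower were M419DRAFT_71653 (−3.06, SE 0.23, edgeR adjusted p = 1.21e-06) and the chitosanase gene M419DRAFT_57859 of family GH75 (−3.13, SE 0.15, edgeR adjusted p = 6.31e-08). Only M419DRAFT_7256 of family GH20, the family of hexosaminidases that act on chitin oligomers, stood for that step. Its difference between the necromass types was 0.82 (SE 0.88, edgeR adjusted p = 0.605). Its high melanin libraries (8.78 to 10.7 CPM) nevertheless lay above its low melanin libraries (3.94 to 7.02 CPM), as for 24.7% of tested genes. The AA11 gene M419DRAFT_71162 went the other way, with a log2 difference of −1.57 (SE 0.58, edgeR adjusted p = 0.124). The fit's spread for both includes uneven glucose libraries, at 0.934 to 43.5 and 7.74 to 60.9 CPM.

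Since 3 of the 5 genes carry CBM1, the 12 genes that carry this module outside GH18 were compared as well. On high against low melanin necromass, edgeR called 0 of the 12, and DESeq2 also called 0. With 0.655% of all tested genes called higher and 0.215% lower, a count of 0 among 12 is near the background. At an unadjusted p under 0.05 there were 7, and 3 had an edgeR adjusted p under 0.05, all with higher values on high melanin but under the fold limit. Their log2 differences ran from −0.67 to 1.42 with a median of 0.58, whereas the 3 CBM1 chitinase genes had 4.22 (SE 0.59) for M419DRAFT_86290, 3.64 (SE 0.50) for M419DRAFT_104468 and 3.17 (SE 0.57) for M419DRAFT_133349, values that the rule selected. On necromass against glucose all 12 were called higher, as were 12.9% of all tested genes. These 12 were found in the study's list of genes called in the same libraries, so a call was favoured in advance. The count is thus a description and not a result against that share. Their log2 differences ran from 5.70 to 8.97 with a median of 8.64, while the 3 chitinase genes had 4.88, 2.52 and 2.91. That difference between the sets was not tested. Among genes with at least 1000 CPM, the 10 lowest glucose shares had a median of 0.294% of the low melanin level. For high melanin that median was 0.183%. How far a carry-over of that size set the glucose counts of the 12 CBM1 genes, and so their log2 differences, was not tested.

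The genes outside GH18 whose profile over the 9 libraries was most like the mean profile of the 5 were M419DRAFT_84142, M419DRAFT_67737, M419DRAFT_85371, M419DRAFT_128803 and M419DRAFT_76079, among 9033 genes compared. Their Pearson's r with that profile was 0.977, 0.974, 0.971, 0.969 and 0.968. M419DRAFT_128803, annotated as a DNA photolyase, had 0.0148 ± 0.0257 CPM on glucose, 0.0947 ± 0.0899 CPM on low melanin and 1.94 ± 0.440 CPM on high melanin necromass. The likeness is one of shape, not of size: the most similar gene, M419DRAFT_84142, went from 1.69 ± 0.258 CPM on glucose through 2.40 ± 0.278 to 5.81 ± 0.246 CPM on high melanin, and M419DRAFT_85371 from 7.60 ± 0.154 through 10.3 ± 1.09 to 16.9 ± 0.386 CPM, so both were under the 4-fold limit between the necromass types. M419DRAFT_76079 carries domains of a polyketide synthase, and for the other 3 no annotation was used here. The choice depended on the measure: by Spearman's rho 0 of these genes were among the top 5, and on log2 CPM from library totals 1 was.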

How the data were processed

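The authors prepared poly(A) libraries with the NEBNext Ultra II kit, trimmed the paired reads with CHURP, and assigned them with kallisto 0.48.0 to the RUT-C30 cDNA set of Ensembl Fungi. The deposited table holds kallisto's estimated counts per gene for the 9 libraries, in whole numbers, not scaled for library size and without transcript lengths, so tximport's length offsets could not enter. Whether the counting used strand is not given in the sources used here, so overlapping antisense transcripts could share reads.

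The 5 genes, lists and tests were chosen with earlier results of these data known. Of 9849 genes, the 9312 that reached 10 counts in 3 or more samples were tested. edgeR 4.0.16 under R 4.3.3 gave TMM factors and 1 quasi-likelihood model of the 9 libraries, grouped by substrate (common biological coefficient of variation 0.193). The Benjamini-Hochberg adjustment ran over the 9312 genes. A gene was called where its adjusted p was under 0.05 and its log2 difference was 2 or more in size. Each SE was derived from the quasi-likelihood test, as the size of the log2 difference over the square root of its F statistic. It is not an SE that the model reports itself. The study's methods give 3 biological replicates per substrate. The fit was tested before use on simulated counts, for necromass against glucose only and with changes placed only in well-counted genes. That check does not cover genes with few counts. Pearson's r used edgeR's log2 CPM with a prior count of 2, against the mean of the 5 genes' standardised profiles. Plots used matplotlib 3.10.9 under Python 3.11.15.

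Named by rule were the 5 genes, the 7 other GH18 genes, the called genes of the chitin and CBM1 lists with those that a small count needs, and the 5 most similar profiles among genes with at least 10 counts in every high melanin library. M419DRAFT_7256 and M419DRAFT_71162 were named after their values were seen. GH18, CBM1 and other tags came from the annotation columns of a shortened copy of the study's gene list, whose values were not used. The alternatives were RLE or upper-quartile factors, DESeq2 1.42.0, no filter, plain library totals (also with each necromass library left out, added after the data were seen), a fit of the 6 necromass libraries, the replicate number as a block, Spearman's rho, and each library left out in turn. Except for the fit with no filter, which kept every gene with a count, all fits were over the same 9312 genes. Gene sequences and coordinates of RUT-C30 were not used here.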

Additional observations from a re-analysis of the deposited data

Results flagged for a closer look

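M419DRAFT_94061 stood below its glucose level on low melanin necromass and above it on high melanin necromass. Its fitted log2 fold change was −1.23 (SE 0.38) on low melanin necromass, with every library below every glucose library, and 2.32 (SE 0.29) on high melanin necromass, with every library above every glucose library. The difference between these values is the contrast by which the gene was chosen, and it was not tested. The low melanin value rests on 13 counts in all, and it stayed between −1.53 and −0.99 over the alternatives.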

How the results depend on the processing

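Over 14 alternatives, M419DRAFT_7503 (edgeR or DESeq2 adjusted p from 3.64e-21 to 1.64e-06) and M419DRAFT_133349 (1.71e-06 to 0.00545) were called higher on necromass than on glucose each time, and M419DRAFT_94061 in none (0.0793 to 0.356). M419DRAFT_7503 passed the count filter only through necromass libraries, so its calls and p values carry that limit. The count of all genes called in either direction was 1945, and 1908 to 2075 under the alternatives. The 4-fold limit between necromass types was met by 5 of 5 genes under the other scalings and, after TMM scaling, with any necromass library left out. On plain library totals, the measure that chose the genes, it was met by 4 of 5 without high melanin replicate 2 or low melanin replicate 1, where M419DRAFT_7503 was at 3.68 and 3.83. Leaving libraries out on that measure was added after the data were seen.

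Over 15 alternatives, the log2 difference of the AA11 gene M419DRAFT_135815 between necromass types ran from 1.81 to 2.83, with no call or p given. The rest of the 6 chitin-related genes were not called between the necromass types in any of them. The count of CBM1 genes called was 0 in all 15. Of the 5 most similar profiles, 1 was kept on log2 CPM from library totals and 0 with Spearman's rho. The cause was not tested.

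Replicate numbers did not pair the samples: deviations from the group means of same-numbered libraries correlated between −0.168 and 0.0789, and those of other pairs between −0.228 and 0.231. The replicate block left 0 of the 12 CBM1 genes called, with 1935 genes called in all on necromass against glucose. It changed no call of M419DRAFT_7503, M419DRAFT_133349 or M419DRAFT_94061.

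Depth limits the glucose and low melanin values of M419DRAFT_86290 and M419DRAFT_104468, which had at most 5 counts in those libraries, and the glucose value of M419DRAFT_7503, with at most 2. For these the fold changes are known only within the wide counting intervals given.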
